A study of Mus musculus with 6 samples.

Results

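Phospholipase A2 enzymes cut a fatty acid from membrane phospholipids, and 7 genes that encode them are described here in MSU-treated mouse macrophages: Pla2g4a, Pla2g4b, Pla2g6, Pla2g7, Pla2g12a, Pla2g15 and Pla2g16. They were picked by gene symbol from the 54532 genes of the deposited count table. Because the choice was made with the difference between the groups in view, above all the lower levels of Pla2g7 and Pla2g12a, their levels and differences are given as a description with no test. The series holds 6 libraries of total RNA from bone-marrow-derived macrophages, phagocytes grown from mouse marrow. In 3 libraries the cells were labelled Tet2 knockout and in 3 wild-type, and in all 6 the cells had been treated with monosodium urate (MSU), the crystal of gout. Tet2 codes for a dioxygenase that acts on the methyl group of 5-methylcytosine, and its loss in blood cells is studied in the series in relation to gout. The labels give no allele, strain, age, dose or duration, and no untreated cells were analysed here, so the values describe the genotype label within the treated state. Whether the 3 libraries of a group stem from different animals is not labelled, so each p-value below reflects library-to-library spread that may be technical.

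The enzymes of this family share a reaction but not a structure. Of those of the cytosol, the enzyme of Pla2g4a releases arachidonic acid, the precursor of prostaglandins and leukotrienes, and leaves a lysophospholipid behind. Secreted members act on phospholipids outside the cell or on lipoproteins, and 1 of them inactivates platelet-activating factor (PAF), a phospholipid mediator of inflammation. In macrophages, the lysosomal member digests phospholipid taken up with particles and dying cells.

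The difference in chemistry can be read from the coding sequence around the active site, shown for all 7 genes because the 2 genes with lower levels belong to separate enzyme classes. Each run below is taken from the main GENCODE M21 transcript on GRCm38, the build that mm10 names, and reads 5′ to 3′ along the gene with 21 bases on each side of the active-site codons. Capitals mark the codon of the catalytic serine in Pla2g4a, Pla2g4b, Pla2g6, Pla2g7 and Pla2g15. In Pla2g12a they mark the neighbouring codons of the catalytic histidine and the calcium-binding aspartate, and in Pla2g16 the codon of the catalytic cysteine.
Pla2g4a: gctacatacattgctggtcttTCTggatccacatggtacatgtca
Pla2g4b: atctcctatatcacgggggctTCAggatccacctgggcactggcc
Pla2g6: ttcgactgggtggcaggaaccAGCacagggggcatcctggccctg
Pla2g7: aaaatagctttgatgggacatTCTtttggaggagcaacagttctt
Pla2g15: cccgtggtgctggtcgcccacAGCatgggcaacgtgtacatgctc
Pla2g12a: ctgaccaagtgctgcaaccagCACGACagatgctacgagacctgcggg
Pla2g16: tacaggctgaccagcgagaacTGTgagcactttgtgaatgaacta
The run of Pla2g7 lies at chr17:43604575-43604619 on the plus strand, in exon 9 of 12. That of Pla2g12a lies at chr3:129890289-129890336 on the plus strand, in exon 3 of 4. Those of Pla2g15 (chr8:106161152-106161196, plus strand, exon 5 of 6), Pla2g16 (chr19:7579151-7579195, plus strand, exon 4 of 5) and Pla2g6 (chr15:79299045-79299089, minus strand, exon 10 of 16) also lie within 1 exon. The runs of Pla2g4a (exons 8 and 9 of 18) and Pla2g4b (exons 12 and 13 of 20) cross a splice junction, so their bases come from both sides of an intron. Coding length ran from 486 bases in Pla2g16 and 576 in Pla2g12a to 2373 in Pla2g4b, with 1320 bases in Pla2g7. In each of the 7 genes, the signature searched for that gene was found once in its own reading frame.

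Total counts ran from 11997104 to 14481843 per library. Mitochondrial transcripts took 0.240% to 0.275% of counts in the wild-type label and 0.349% to 0.366% in the knockout label. Libraries correlated with Pearson r from 0.9950 to 0.9960 within groups and from 0.9863 to 0.9878 between groups, across genes on the log2 scale. Tet2 stood at 29.3 ± 1.41 CPM (read counts relative to library size; SD, n = 3) in the libraries labelled wild-type and at 33.7 ± 0.80 CPM (SD, n = 3) in those labelled knockout. It was 0.20 higher on the log2 scale (SE 0.07; edgeR adjusted p = 0.0159), which no longer passed without knockout replicate 2 (edgeR adjusted p = 0.0553) or wild-type replicate 2 (0.0799), by DESeq2 (0.0691), or when the spread between libraries was set to 0.1 (biological coefficient of variation; 0.350). A count over all exons cannot show a partial deletion. Since the target gene was not lower, groups are named by their labels throughout. All 10 macrophage markers passed the filter on low counts, and their summed level was 8031 to 8445 CPM in the wild-type label and 8075 to 8325 CPM in the knockout label. By edgeR 4 of them were higher, among them Adgre1 (log2 difference 0.78), Mertk (0.65) and Csf1r (0.55), and 5 were lower, among them Lyz2 (-0.47). Over all tested genes 21.6% were higher and 19.2% lower, the shares to set beside this list and the next. The 9 connective tissue markers passed the filter too, with 1 higher and 5 lower. They summed to 7585 to 8097 CPM in the wild-type label against 7084 to 7265 CPM in the knockout label. Col1a1 led them with 3453 and 3195 CPM. Summed neutrophil markers (25.1 to 29.1 against 32.7 to 37.1 CPM, with Ly6g and Retnlg at 0 reads), dendritic cell markers (7.10 to 8.34 against 9.40 to 10.8, with Siglech and Cd209a at 0), T cell markers (4.55 to 4.96 against 12.4 to 13.7, with Cd3g at 0) and endothelial markers (90.3 to 95.3 against 129 to 135) were higher in the knockout label. Of these 4 lists 2 of 10, 3 of 8, 2 of 7 and 4 of 6 markers were tested. Of the tested ones 1, 1, 1 and 2 were called higher and none lower, against 21.6% and 19.2% of all tested genes. The genes called were Csf3r (25.8 and 33.4 CPM), Xcr1 (1.71 and 3.60), Cd4 (3.48 and 11.8), and Vwf and Kdr, while S100a8 (-0.14), Lck (-0.28) and Cdh5 (-0.15) had log2 differences below 0 that did not pass. The natural killer cell markers, none of them tested, summed to 0.71 to 1.08 CPM in the wild-type label and 0.28 to 0.61 CPM in the knockout label. The part of such cells in the differences below was not tested, and in bulk RNA fewer cells of a type cannot be told apart from less RNA per cell.

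Pla2g7 and Pla2g12a, which encode secreted enzymes, stood more than 2-fold lower in the libraries labelled knockout, and the lysosomal Pla2g15 and the membrane-bound Pla2g16 stood higher. The cytosolic Pla2g4a and Pla2g6 overlapped between the groups, and few reads were assigned to Pla2g4b. Levels below are CPM scaled by TMM, a method that assumes most genes do not differ. Differences are log2 values of the knockout label minus the wild-type label, with the SE of edgeR's fit. No pattern by compartment is read from the members. Outside them, the secreted Pla2g5 and Pla2g2e were at 0.76 and -0.35, and the cytosolic Pla2g4c at 0.56. Only Pla2g5 of these was called, and it did not pass in 12 of 15 alternatives.

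Pla2g7 encodes the acetylhydrolase that inactivates PAF and is carried on lipoproteins. It had 8.10, 8.499 and 5.97 CPM in the wild-type label and 2.67, 2.70 and 3.03 CPM in the knockout label. All 3 knockout libraries were below the lowest wild-type library, which was replicate 3. The raw counts were 114, 103 and 83 against 38, 38 and 40 reads. The log2 difference was -1.42 (SE 0.18), a level 2.68-fold lower. Within the wild-type label the coefficient of variation was 18.1%, against 10% from counting alone, and within the knockout label it was 7.13% against 16.1%. Leaving out wild-type replicate 3 gave -1.57, and leaving out wild-type replicate 2 gave -1.34.

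Pla2g12a encodes a small secreted enzyme that needs calcium. It had 16.9, 17.9 and 15.8 CPM in the wild-type label and 7.65, 6.54 and 4.62 CPM in the knockout label. The groups did not overlap, and knockout replicate 3, with 61 reads against 109 and 92 in the other knockout libraries, was the lowest of all. The log2 difference was -1.42 (SE 0.12), a level 2.67-fold lower. The knockout libraries varied among themselves by 24.5%, where counting alone gives 10.7%, and the wild-type libraries by 6.40% against 6.67%. Without knockout replicate 3 the log2 difference was -1.24.

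Pla2g15 encodes the lysosomal phospholipase A2, a relative of the plasma enzyme that esterifies cholesterol. Its level was 135, 136 and 140 CPM in the wild-type label and 163, 163 and 171 CPM in the knockout label. Every knockout library exceeded every wild-type library, and the log2 difference was 0.27 (SE 0.04), or 1.21-fold. It was the member with the most reads, 1651 to 2323 per library, and its spread of 2.08% and 2.75% within groups was close to the 2.34% and 2.09% of counting.

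Pla2g16 encodes an enzyme of the cysteine-dependent class that was first known from fat tissue. It had 25.3, 25.3 and 23.2 CPM in the wild-type label and 33.8, 33.6 and 32.4 CPM in the knockout label. The groups were apart, with a log2 difference of 0.44 (SE 0.07), or 1.35-fold.

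Pla2g4a encodes the cytosolic, calcium-dependent enzyme that releases arachidonic acid. It had 38.7, 38.6 and 34.96 CPM in the wild-type label and 39.0, 37.2 and 39.3 CPM in the knockout label. The groups overlapped, the log2 difference was 0.04 (SE 0.06), and its sign turned without wild-type replicate 3 (-0.01). Pla2g6 encodes the calcium-independent enzyme. It had 10.02, 9.16 and 9.64 CPM in the wild-type label and 9.68, 12.005 and 10.2 CPM in the knockout label, which overlapped, with a log2 difference of 0.14 (SE 0.12). Knockout replicate 2 was its highest library, and without it the log2 difference was 0.05.

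Pla2g4b, a cytosolic relative of Pla2g4a, had 1, 0 and 2 reads in the wild-type label and 3, 5 and 2 reads in the knockout label. It did not pass the filter on low counts and no fold is given. The sums of 3 and 10 reads have exact Poisson intervals (95%) of 0.62 to 8.77 and of 4.80 to 18.4 reads, which overlap and cover counting error only. Its locus (120033417 to 120043030) overlaps Sptbn5 on the opposite strand, which had 26 reads in all. By coordinates it lies wholly within Gm28042 (120027493 to 120043033), a coding model on its own strand with 0 reads. No strand setting of the counting is known here, and reads from the overlap cannot be told apart by gene. Whether reads that fall in both Gm28042 and Pla2g4b were dropped is not known either. These counts therefore cannot show how low the expression of Pla2g4b was. The genes that overlap the other members had at most 2 reads.

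**Figure D1:**
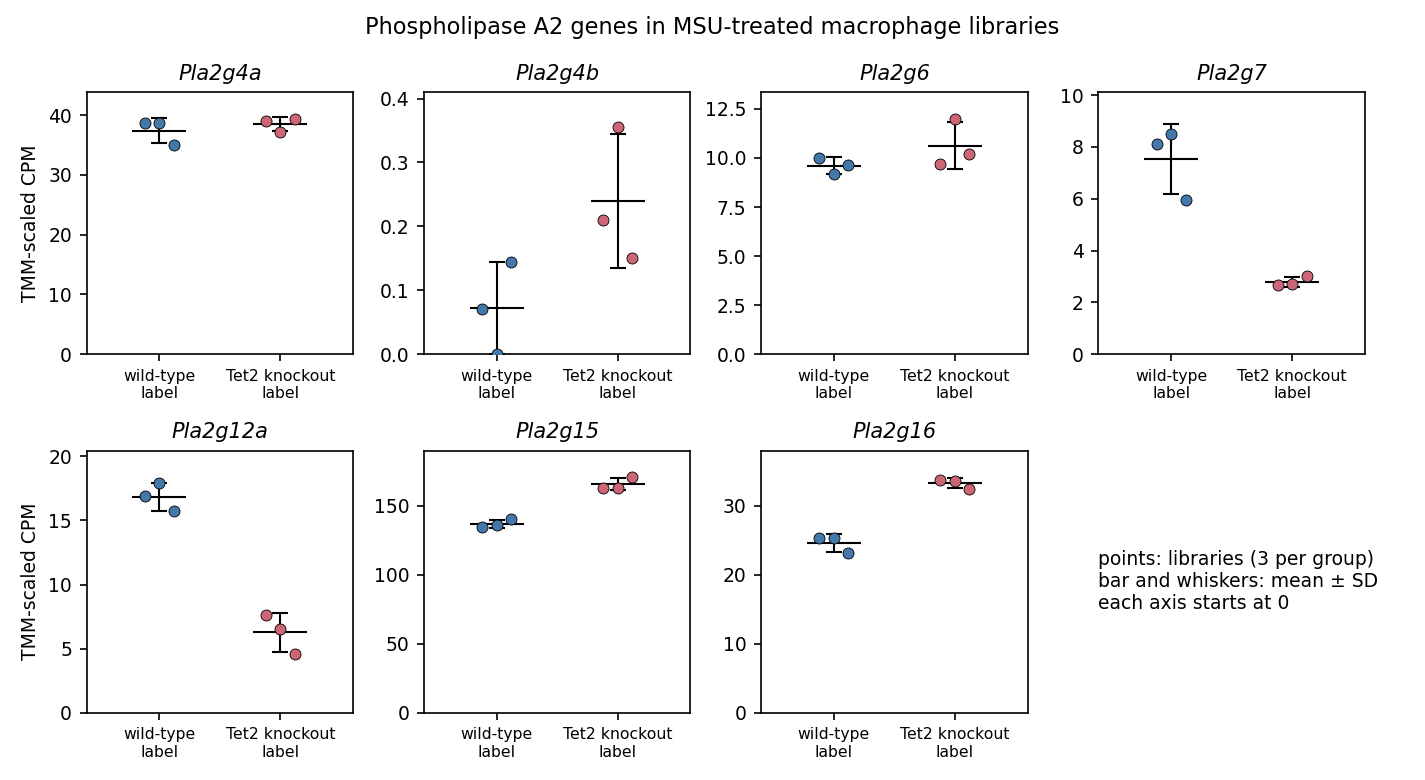
Level of each phospholipase A2 gene in every library, in TMM-scaled CPM on axes that start at 0, with the wild-type label in blue and the Tet2 knockout label in red. Points are libraries and bars are the mean ± SD of 3. Pla2g7 and Pla2g12a sit lower in all 3 knockout libraries, Pla2g15 and Pla2g16 sit higher, and Pla2g4a and Pla2g6 overlap.

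Of the 6 members that passed the filter, 4 had groups that did not overlap, 2 lower and 2 higher, and over the 13175 genes tested 47.8% were likewise apart. A log2 difference under -1 was seen in 2 of the 6 and in 0.713% of all tested genes. The members were chosen on this difference, so nothing is read from these shares. Pla2g7 and Pla2g12a, at -1.42 each, lie inside the 2-fold line that the choice used, and the member nearest to it outside is Pla2g4a at 0.04.

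To compare genes with one another, levels were taken per length, as TPM from the deposited gene lengths. For Pla2g4b they rest on the few reads assigned to it. Pla2g15 stood far above the others, with 136 ± 4.98 TPM (SD, n = 3) in the wild-type label and 165 ± 4.35 TPM in the knockout label. Pla2g4a followed with 17.6 ± 0.73 and 18.0 ± 0.37 TPM. In the wild-type label the order then ran Pla2g12a (13.7 ± 0.66 TPM), Pla2g16 (11.5 ± 0.40), Pla2g7 (7.76 ± 1.29), Pla2g6 (5.31 ± 0.28) and Pla2g4b (0.04 ± 0.04), and no neighbours in that order overlapped over libraries. In the knockout label the next was Pla2g16 (15.6 ± 0.41 TPM), followed by Pla2g6 (5.87 ± 0.74), Pla2g12a (5.10 ± 1.24), Pla2g7 (2.88 ± 0.20) and Pla2g4b (0.12 ± 0.06). There Pla2g6 and Pla2g12a overlapped, and the other neighbours did not. Pla2g12a thus went from the third to the fifth place.

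The order above and the sum below take in the chosen genes only. Pla2g2e, which is left out, had a mean of 8.33 TPM in the wild-type label and 6.46 TPM in the knockout label. The summed level of the 7 genes was 191, 192 and 195 TPM in the wild-type label and 209, 213 and 215 TPM in the knockout label. Pla2g15 made up 70.9 ± 1.78% of that sum in the wild-type label and 77.6 ± 0.92% in the knockout label (SD, n = 3 each). Pla2g12a took 7.14 ± 0.41% and 2.41 ± 0.62%, and Pla2g7 took 4.04 ± 0.71% and 1.36 ± 0.08%. The share of Pla2g16 was 5.996 ± 0.28% and 7.34 ± 0.28%, and that of Pla2g4a 9.13 ± 0.48% and 8.498 ± 0.20%. The shares of Pla2g7 and Pla2g12a were smaller in each knockout library than in any wild-type library, while the shares of Pla2g6 overlapped (2.76 ± 0.14% and 2.76 ± 0.34%).

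**Figure D2:**
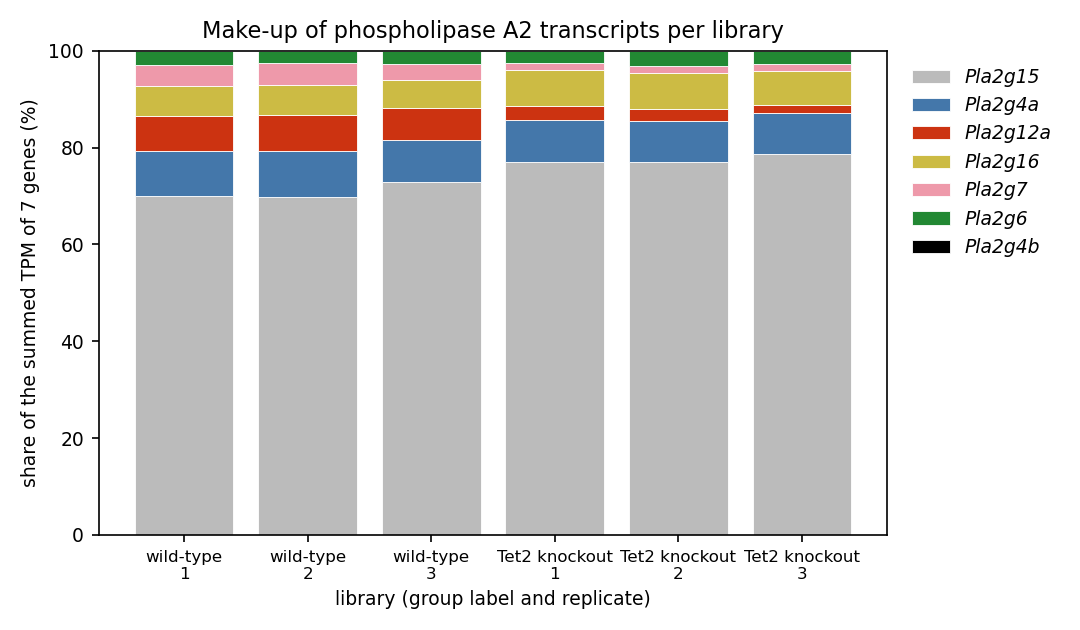
Share of each gene in the summed TPM of the 7 phospholipase A2 genes, in percent, as 1 stacked bar per library. Pla2g15 fills 69.9% to 78.6% of every bar, and the red (Pla2g12a) and pink (Pla2g7) segments are thinner in the 3 knockout libraries.

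Pla2g12a lies on chromosome 3 (mm10, positions 129878606 to 129895825, plus strand), 3.57 Mb from Tet2 (133463679 to 133545139, minus strand). Within 1 Mb of Pla2g12a, 9 other genes were tested, of which 5 were called lower and 1 higher by edgeR. Among all tested genes 19.2% were lower and 21.6% higher. With the assumed spread of 0.1, the lower Gar1 (edgeR adjusted p = 0.182) and Sec24b (0.536) and the higher Ostc (0.462) no longer passed. Mcub, Rpl34 and Gm43351, given below, still did. A log2 difference under -1 was seen in 3 of these 9 and in 0.713% of all tested genes. Mcub encodes a mitochondrial calcium uniporter subunit and lies on the minus strand, with its lower coordinate 36.4 kb from that of Pla2g12a. It had 26.9, 23.6 and 24.5 CPM in the wild-type label and 8.56, 7.25 and 10.4 CPM in the knockout label. The groups were far apart, with the log2 difference at -1.53 (SE 0.10; edgeR adjusted p = 5.54e-26). Rpl34, a ribosomal protein gene 848 kb away by the same measure, had 193 ± 2.69 CPM in the wild-type label and 81.6 ± 5.68 CPM in the knockout label (SD, n = 3 each). Its log2 difference was -1.24 (SE 0.04; edgeR adjusted p = 4.33e-52). The many processed copies of ribosomal protein genes can share its reads, so its value is uncertain. The remaining one was the noncoding Gm43351 (log2 difference -1.36, SE 0.40; edgeR adjusted p = 0.00358). Mcub, Rpl34 and Gm43351 are named with their values already known.

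The genes next to Pla2g12a did not differ by as much. Casp6, which encodes an apoptotic protease and lies 5600 bases to its right, had 11.99 ± 0.90 CPM in the wild-type label and 11.3 ± 0.64 CPM in the knockout label (log2 difference -0.09, SE 0.11; edgeR adjusted p = 0.577). Gar1, a gene of small nucleolar RNA complexes on the left, fell by 0.28 on the log2 scale (SE 0.09; edgeR adjusted p = 0.00668), which no longer passed without knockout replicate 1 (0.0580; 0.00358 to 0.182 over all alternatives). Over the 68 other tested genes within 10 Mb of Tet2, Pla2g12a left out, 19 were higher and 16 lower (21.6% and 19.2% over all tested genes). Their median log2 difference was 0.05, and the 3 that were more than 2-fold lower were those near Pla2g12a. In the same window 1 gene, Alpk1, was more than 2-fold higher (log2 difference 1.19), as were 231 of all 13175 tested genes. Of 577 tested genes on the rest of chromosome 3, 4 were more than 2-fold lower, against 0.713% of all tested genes. The genotype label and the descent of the stretch around Tet2 cannot be told apart in this design.

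**Figure D3:**
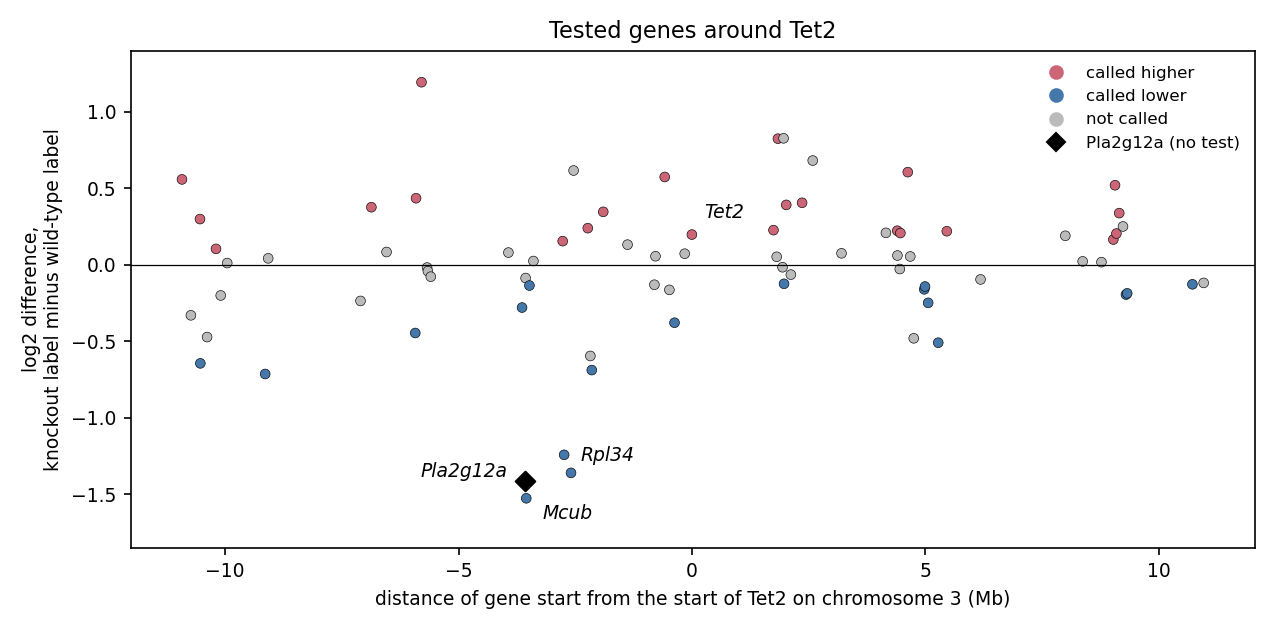
Log2 difference (knockout label minus wild-type label) of each tested gene around Tet2, against the distance of its start from that of Tet2 in Mb. Start here means the lower coordinate on either strand. Pla2g12a (diamond), Mcub and Rpl34 lie between -3.6 and -2.7 Mb with log2 differences from -1.53 to -1.24, and the unlabelled Gm43351 is the only other point below -1.

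The other members lie on separate chromosomes, and none of the tested coding genes next to them was more than 2-fold lower. Pla2g7 (chromosome 17, 43568098 to 43612201, plus strand) lies between Adgrf5 (log2 difference 0.31, SE 0.23; edgeR adjusted p = 0.293) and Cyp39a1 (-0.44, SE 0.38; edgeR adjusted p = 0.372), neither of which was called. Pla2g15 (chromosome 8, 106150399 to 106164715, plus strand) has Slc7a6 4142 bases to its right, at -0.10 (SE 0.06; edgeR adjusted p = 0.185), and Esrp2 on its left was not called either. Pla2g16 (chromosome 19, 7557459 to 7588545, plus strand) has Atl3 18851 bases to its left, at -0.01 (SE 0.03; edgeR adjusted p = 0.911), and Slc3a2, 1118337 bases to its right, was lower (-0.47; edgeR adjusted p = 2.13e-35). Next to Pla2g4b, Ehd4 was higher (0.59; edgeR adjusted p = 2.37e-33) and Mapkbp1 was not called. Next to Pla2g6, Pick1 was not called and Maff was lower (-0.21; edgeR adjusted p = 0.0294). Maff did not pass without knockout replicate 1 (edgeR adjusted p = 0.0840) or 3 (0.101) or wild-type replicate 1 (0.0881) or 2 (0.0787). DESeq2 did not call Maff either (DESeq2 adjusted p = 0.0895). Rgs18, the nearest tested coding gene left of Pla2g4a but 5054183 bases away, was higher (0.48; edgeR adjusted p = 0.00154). Pla2g4a (chromosome 1, 149829618 to 149961290, minus strand) has Ptgs2, which encodes the inducible cyclooxygenase that acts on the arachidonic acid it releases, 138741 bases to its right. Ptgs2 had 147 ± 2.30 CPM in the wild-type label and 151 ± 1.601 CPM in the knockout label (SD, n = 3 each), with the log2 difference at 0.03 (SE 0.04; edgeR adjusted p = 0.494).

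The table holds 15 further rows named as phospholipase A2 genes of the Pla2g series, and 5 of them had no read in any library. In 11 of the 15, those 5 included, no library held more than 5 reads, and Pla2g2d had 1 to 9 reads. Pla2g5, Pla2g4c and Pla2g2e were tested. Pla2g5, a secreted enzyme that macrophages are known to make, had 15, 14 and 13 reads in the wild-type label and 25, 19 and 30 in the knockout label. The groups did not overlap, with the log2 difference at 0.76 (SE 0.32; edgeR adjusted p = 0.0487), but it did not pass in 12 of 15 alternatives, among them without knockout replicate 1 (0.0920) or 3 (0.241) and without wild-type replicate 1 (0.102), 2 (0.0649) or 3 (0.147). Pla2g4c, a cytosolic enzyme, had 22, 17 and 20 against 31, 29 and 30 reads and did not pass (log2 difference 0.56, SE 0.28; edgeR adjusted p = 0.107). Pla2g2e, another secreted enzyme, had 33, 31 and 38 against 38, 30 and 15 reads (log2 difference -0.35, SE 0.26; edgeR adjusted p = 0.290). Knockout replicate 3 was its lowest library.

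Among 39 genes of the wider phospholipase A2 superfamily, which takes in these secreted genes, patatin-like lipases, PAF hydrolases, lysophospholipases and the receptor Pla2r1, 18 were tested. By edgeR 4 were higher and 3 lower, where 21.6% of all tested genes were higher and 19.2% lower, and the median log2 difference was -0.01 against -0.00 over all tested genes. None of the 18 differed by more than 2-fold, but the list leaves out the members, and so Pla2g7 and Pla2g12a, which did. Pla2r1, which binds and clears secreted phospholipase A2, rose from 3.38 ± 1.08 to 5.79 ± 1.12 CPM (log2 difference 0.80, SE 0.19; edgeR adjusted p = 0.000210). Pla1a, a phosphatidylserine lipase, fell from 16.0 ± 0.51 to 11.5 ± 0.84 CPM (log2 difference -0.47, SE 0.10; edgeR adjusted p = 8.69e-05). Pnpla2, the main triglyceride lipase of lipid droplets, fell from 83.8 ± 0.41 to 67.7 ± 3.19 CPM (edgeR adjusted p = 2.36e-08). The PAF hydrolases besides Pla2g7 moved little: Pafah1b1, the noncatalytic subunit, fell by 0.14 on the log2 scale, Pafah2 rose by 0.21, and Pafah1b2 (-0.07) and Pafah1b3 (-0.04) did not pass. Pnpla8, a mitochondrial and peroxisomal enzyme, rose by 0.18. Pafah2 no longer passed without knockout replicate 1 (edgeR adjusted p = 0.127) or 2 (0.132), or without wild-type replicate 1 (0.0738) or 3 (0.108). Upper-quartile scaling (edgeR adjusted p = 0.0545), no filter on low counts (0.0660) and DESeq2 (DESeq2 adjusted p = 0.117) lost the call of Pafah2 too. Pnpla8 no longer passed without knockout replicate 2 (edgeR adjusted p = 0.0797) or without wild-type replicate 1 (0.0529) or 2 (0.0869). By DESeq2 it did not pass either (DESeq2 adjusted p = 0.0664). With an assumed biological coefficient of variation of 0.1 in place of the fitted 2.63%, 1 gene of the list was higher and 1 lower.

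Of 19 tested genes that put fatty acids back into phospholipid, 8 were higher and 0 lower by edgeR, which is 42.1% called against 40.9% of all tested genes (21.6% higher, 19.2% lower). At an unadjusted p under 0.05, 1 gene was lower. By DESeq2 and limma-voom 0 were lower, with RLE or upper-quartile scaling 1 was, without knockout replicate 1 it was 1 and without wild-type replicate 2 it was 2. The median log2 difference was 0.12. Acsl1, which activates long-chain fatty acids, rose from 202 ± 14.7 to 384 ± 2.43 CPM (log2 difference 0.92, SE 0.03; edgeR adjusted p = 1.17e-41), Acsl5 rose by 0.22, and Acsl4, the isoform that prefers arachidonic acid, stood at 173 ± 5.49 and 171 ± 1.55 CPM (log2 difference -0.02; edgeR adjusted p = 0.756). Tmem164, an acyltransferase of ether phospholipids, rose by 0.29 and the lysophosphatidylcholine acyltransferase gene Lpcat1 by 0.33. Lpcat2, the enzyme that makes PAF, rose from 39.9 ± 0.42 to 46.7 ± 2.21 CPM (log2 difference 0.23, SE 0.06; edgeR adjusted p = 0.00110). Acsl4 and Lpcat2 were chosen after their values were seen. With the assumed spread of 0.1, Acsl1 alone passed.

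Receptors and handling enzymes of lysophospholipids and PAF split, with 7 of 19 tested genes higher and 3 lower by edgeR (21.6% and 19.2% over all tested genes) and a median log2 difference of 0.00. Ptafr, the PAF receptor, had 305 ± 10.6 CPM in the wild-type label and 363 ± 6.73 CPM in the knockout label (SD, n = 3 each), a rise of 0.25 on the log2 scale (SE 0.03; edgeR adjusted p = 6.88e-13). Abhd12, a lysophosphatidylserine lipase, rose by 0.29. Plpp3, which dephosphorylates lysophosphatidic acid at the cell surface, fell from 118 ± 5.51 to 75.2 ± 1.57 CPM (log2 difference -0.65; edgeR adjusted p = 3.63e-26), and Gde1, a glycerophosphodiesterase, from 123 ± 6.11 to 80.3 ± 0.92 CPM (-0.61; edgeR adjusted p = 6.35e-25). Plpp1 also fell (-0.26), which did not pass without knockout replicate 2 (edgeR adjusted p = 0.0564) or 3 (0.0849), or by DESeq2 (DESeq2 adjusted p = 0.0625). With the assumed spread of 0.1, 2 genes were higher and 2 lower, and Ptafr and Abhd12 no longer passed.

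Kinases and partners known to regulate the cytosolic enzyme were called higher in 10 of 24 tested genes and lower in 2 (21.6% and 19.2% over all tested genes), with a median log2 difference of 0.03, while Pla2g4a itself stood level. The protein kinase C genes Prkcb (12.01 ± 0.80 to 26.3 ± 2.48 CPM; log2 difference 1.13, SE 0.09; edgeR adjusted p = 2.72e-20) and Prkcd (0.35) rose, as did the calmodulin kinase gene Camk2d (0.38). Anxa1, which encodes the inhibitor annexin A1, rose from 837 ± 23.0 to 1025 ± 29.4 CPM (log2 difference 0.29). The kinase genes Mapk8 (-0.32) and Mapkapk3 (-0.20) fell. With the assumed spread of 0.1, 3 genes were higher and 0 lower, and Anxa1, Mapk8 and Mapkapk3 no longer passed.

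Of 16 tested genes for prostaglandin and leukotriene enzymes, which act on the released arachidonic acid, 6 were higher and 4 lower by edgeR (median log2 difference 0.18), where 21.6% of all tested genes were higher and 19.2% lower. Alox5ap, which presents arachidonic acid to lipoxygenase, rose from 30.3 ± 0.96 to 53.2 ± 2.29 CPM (log2 difference 0.81; edgeR adjusted p = 5.45e-22). The lipoxygenase gene Alox5 had 1, 1 and 3 reads in the wild-type label and 2, 2 and 1 in the knockout label and was not tested. Alox5 was chosen after its value was seen. Hpgds (0.52), Tbxas1 (0.48) and Ptges (0.36), the synthase genes of prostaglandin D, thromboxane and prostaglandin E, rose. Ptges2 (-0.29), Ptges3 (-0.21), Ptgis (-0.35) and Lta4h (-0.14) fell, and Lta4h no longer passed without knockout replicate 2 (edgeR adjusted p = 0.0674) or 3 (0.238) or wild-type replicate 1 (0.189). Lta4h also failed by DESeq2 (DESeq2 adjusted p = 0.127), by limma-voom (limma-voom adjusted p = 0.0503) and with no filter on low counts (edgeR adjusted p = 0.0730). With the assumed spread of 0.1, 4 genes were higher and 0 lower.

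**Figure D4:**
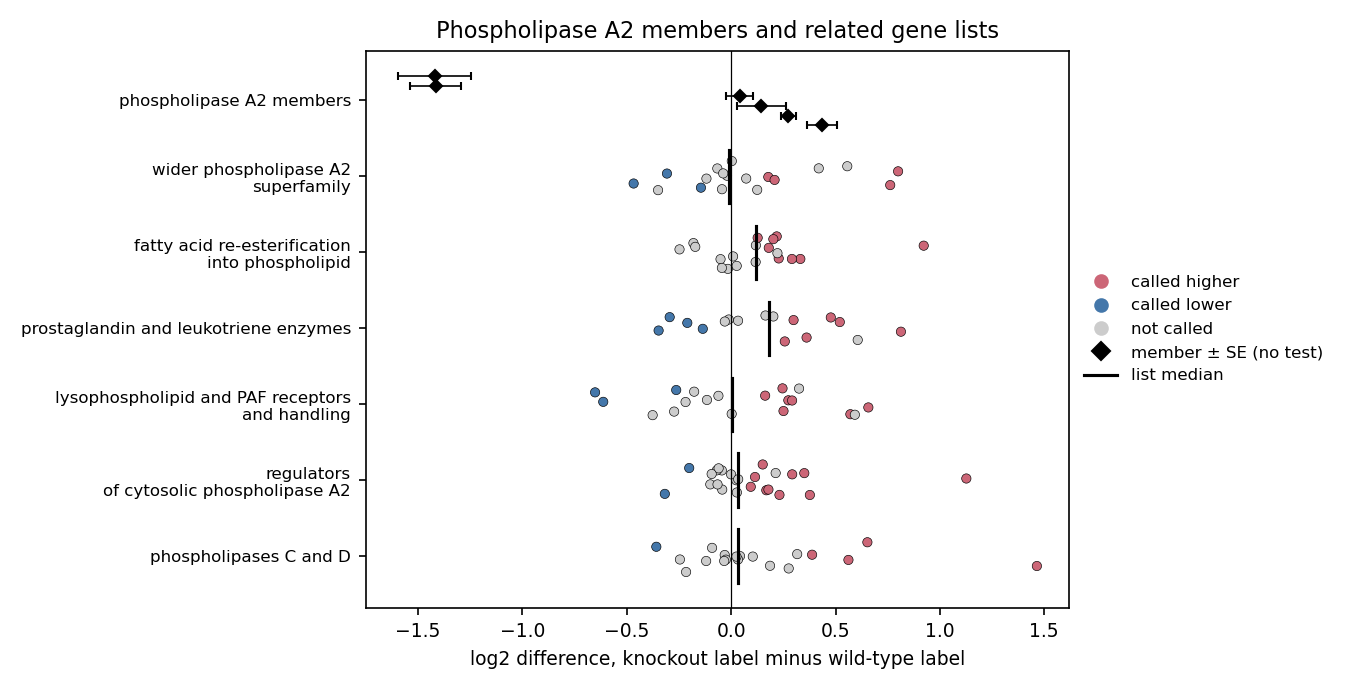
Log2 differences (knockout label minus wild-type label) of the 6 tested phospholipase A2 members (diamonds ± SE, shown with no test) and of the tested genes of 6 related lists (points, coloured by edgeR call, with the list median as a line). Pla2g7 and Pla2g12a, which were chosen for their lower levels, sit at -1.42. The lists leave the members out, and the lowest value in the lists is -0.65, so nothing is read from this gap.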

How the data were processed

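The authors deposited raw read counts, 1 integer per gene and library, beside symbols, coordinates and gene lengths per the file header. The submitters' processing notes name fastp, STAR, featureCounts and mm10, with no versions, and no strand setting is given in the sources used here. Per the labels' protocols, RNA came from a Qiagen RNeasy Plus Mini kit and libraries from the NEBNext Ultra RNA kit. From these counts, R 4.3.3 and edgeR 4.0.16 were used with filterByExpr (minimum count 10; 13175 of 54532 genes kept), TMM scaling and the robust quasi-likelihood test over all genes, with genotype label as its single factor. Adjustment was by Benjamini-Hochberg with a threshold of 0.05. TPM used the deposited lengths. With 3 libraries against 3 an exact permutation test cannot go below p = 0.1, so none was run. The members and the 6 gene lists were chosen with earlier results of these data known. Named were the members, Tet2, up to 4 genes per list with the smallest p, genes next to a member, the 3 coding genes most like each of Pla2g7 and Pla2g12a over libraries, and members of counts of 5 or fewer, the last chosen after their values were seen. Alternatives were DESeq2 1.42.0, limma-voom (limma 3.58.1), scaling by RLE or upper quartile, other filters, protein-coding genes only, a replicate block, an assumed biological coefficient of variation of 0.1, each library left out, and RPKM for TPM. Active-site signatures were searched in translated GENCODE M21 reading frames, and the starts and ends of all 7 members equal those of M21. The test was checked on simulated counts. Figures were drawn with matplotlib 3.10.9 in Python 3.11.15.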

Additional observations from a re-analysis of the deposited data

How the results depend on the processing

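Under 15 alternatives of the fit the log2 differences of Pla2g7 ran from -1.57 to -1.34, of Pla2g12a from -1.58 to -1.24, of Pla2g15 from 0.25 to 0.29, of Pla2g16 from 0.39 to 0.46 and of Pla2g6 from 0.05 to 0.21, and that of Pla2g4a from -0.00887 (without wild-type replicate 3) to 0.067. TMM-scaled RPKM in place of TPM changed no direction. With the assumed biological coefficient of variation of 0.1, 1885 genes were called (1222 higher, 663 lower), against 5385 (2852 higher, 2533 lower) with the fitted spread. List counts then were 1 higher and 1 lower in the superfamily, 1 higher for re-esterification, 0 lower for prostaglandin and leukotriene enzymes, 2 higher for lysophospholipid and PAF genes, 3 higher and 0 lower for regulators, and 0 lower for phospholipases C and D. In all, 17 of 52 called list genes passed under every alternative, and 19 more under all but this one. The superfamily had 2 higher with upper-quartile scaling or no filter and 1 with DESeq2. Re-esterification genes had 1 lower with RLE or upper-quartile scaling, regulators 4 lower with upper-quartile scaling, and phospholipases C and D 0 lower with DESeq2. With 1 library left out, superfamily genes higher ranged from 1 to 3, re-esterification genes lower from 0 to 2, and phospholipases C and D lower from 0 to 1. Deviations of same-numbered libraries correlated with r from -0.02 to 0.00, so no shared deviation was seen. Whether these libraries were prepared as pairs is not labelled. The replicate block gave 5259 calls, and Pla2g5 (edgeR adjusted p = 0.0621) and Ptgs1 (0.0558) no longer passed with it. Beyond the assumed spread, the cause of these changes was not tested. Depth and the overlap with Gm28042 limit Pla2g4b, for which 3 reads were worth 0.21 to 0.25 CPM. Depth also limits Pla2g7, whose knockout counts of 38 to 40 reads carry a counting error of 16.1%.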

Other observations

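Phospholipases C and D cut the head group of a phospholipid. Of their 19 tested genes, 4 were higher and 1 lower by edgeR, where 21.6% of all tested genes were higher and 19.2% lower, with a median log2 difference of 0.03. Plcb2, a phospholipase C that G proteins activate, rose from 5.86 ± 0.52 to 16.2 ± 0.05 CPM (SD, n = 3 each; log2 difference 1.46, SE 0.12; edgeR adjusted p = 2.58e-20). Plcg2, which acts below immune receptors, rose from 109 ± 1.70 to 142 ± 1.81 CPM, and Pld4, a nuclease of the phospholipase D fold, from 27.8 ± 0.91 to 41.0 ± 0.75 CPM. Napepld, which makes N-acylethanolamines, rose by 0.65 on the log2 scale. Plcd1 fell by 0.36, a call lost without knockout replicate 1 (edgeR adjusted p = 0.0867) or wild-type replicate 3 (0.0880), or by DESeq2 (DESeq2 adjusted p = 0.0609).

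Over the 6 libraries, which differ in group and share their processing, the coding genes with the pattern most like Pla2g7 on the log2 scale were Sec62, Egr2 and Epn2 (Pearson r = 0.9969, 0.9966 and 0.9965). Those most like Pla2g12a were Anapc7, Timp2 and Znrf1 (r = 0.9979, 0.9979 and 0.9969). Of 9273 genes compared, 1122 reached r over 0.9 with Pla2g7, and of 9272, 1048 with Pla2g12a. The like genes differed by less than these 2, with log2 differences from -0.67 in Egr2 to -0.14 in Znrf1.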
